A study of Mus musculus with 23 samples.

Results

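The transition of a B cell into a plasma cell is set by a small group of transcription regulators, and 10 of them were followed here through all groups of the study. They were chosen by gene symbol from a fixed list of regulators of B cell identity and plasma cell differentiation. Earlier results of these data were known when the list was chosen. All 10 were listed among the 11548 genes of the naive B cell table and among the 10574 genes of the cultured cell table, and all 10 passed the filter on low values in both. RNA came from mouse spleen B cells sorted with or without a guide RNA against Irf8, the gene of an interferon regulatory factor of lymphoid and myeloid cells. KO denotes Thy1.1-positive cells with an Irf8 guide, and WT denotes Thy1.1-negative cells with no guide, so guide carriage, the Thy1.1 sort and loss of IRF8 cannot be told apart. The libraries include no group with a guide to a different gene. The labels used here name neither the way the guide was delivered nor the strain, age or sex of the mice.

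The 23 libraries formed 8 groups. In naive B cells there were 3 KO libraries of guide 1 with 3 WT libraries of the same arm, and 3 KO libraries of guide 2 with 3 WT libraries of the same arm, called A, B and C in each group. Cells carrying guide 1, and WT cells, were also grown for 72 hours in IL-2 at 20 ng/ml, IL-5 at 5 ng/ml and LPS, for which the label gives 20 mg/ml, a stimulation that drives B cells towards antibody secretion. From these cultures plasmablasts with surface CD138 were sorted (3 KO and 2 WT libraries; the cell type label reads plasma cell), and activated B cells with GL7 and without CD138 were sorted as well (3 KO and 3 WT libraries). Cultured libraries are called m1 to m3. Nothing in the labels says which libraries came from separate mice, so the tests measure the spread between these libraries.

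As background, PAX5 and EBF1 hold the B cell programme in place, FOXO1 and the Ikaros family factor Aiolos (Ikzf3) act with them, and BACH2 and BCL6 repress genes needed for antibody secretion. Blimp-1 (Prdm1) is the repressor that closes the B cell programme in antibody-secreting cells. XBP1 builds the secretory apparatus, ELL2 is an elongation factor that favours the secreted form of immunoglobulin heavy chain mRNA, and ZBTB32 is a zinc finger repressor that limits secondary antibody responses in mice. Several of these factors repress each other, which makes the switch abrupt.

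Values are RPKM, reads scaled by gene length and by the library's total. Differences are in log2(RPKM + 1), and "called" means an adjusted p under 0.05 from limma over all tested genes, with Benjamini-Hochberg adjustment. The naive and cultured tables were normalised separately, so levels are set side by side across them without a test. Estimated reads in genes were 14495000 to 22172000 per naive library and 4323000 to 26896000 per cultured library, except 51000 in plasmablast KO library m3. That library listed 1984 genes at 0. The activated m3 pair went against its labels in Thy1, the gene of the sorting marker: the library labelled KO held 0.093 RPKM and the library labelled WT held 25.7 RPKM, while KO m1 and m2 held 21.9 and 27.8 and WT m1 and m2 held 0.013 and 0.055. In Irf8 the library labelled KO held 92.4 RPKM and the library labelled WT held 59.998, against 69.2 and 68.1 in KO m1 and m2 and 108 and 93.6 in WT m1 and m2. Naive KO guide 1 library A listed 1405 genes at 0, and naive WT library A of arm 1 held 4.93 RPKM of Thy1. The number of regulators called in cultured cells is therefore given with all libraries and again without the 3 m3 libraries. The 5 B cell markers, among them Cd79a, Cd79b, Ms4a1 and Ptprc, were listed in every group, with summed levels of 2652 to 3395 RPKM in naive KO and 2746 to 3172 RPKM in naive WT libraries. The summed level of the plasma cell markers Sdc1, Jchain, Mzb1, Tnfrsf17 and Derl3 was 1773 to 2741 RPKM in KO and 2272 to 4237 RPKM in WT plasmablasts, and 1192 to 1463 RPKM in KO and 779 to 2230 RPKM in WT activated B cells.

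**Figure D1:**
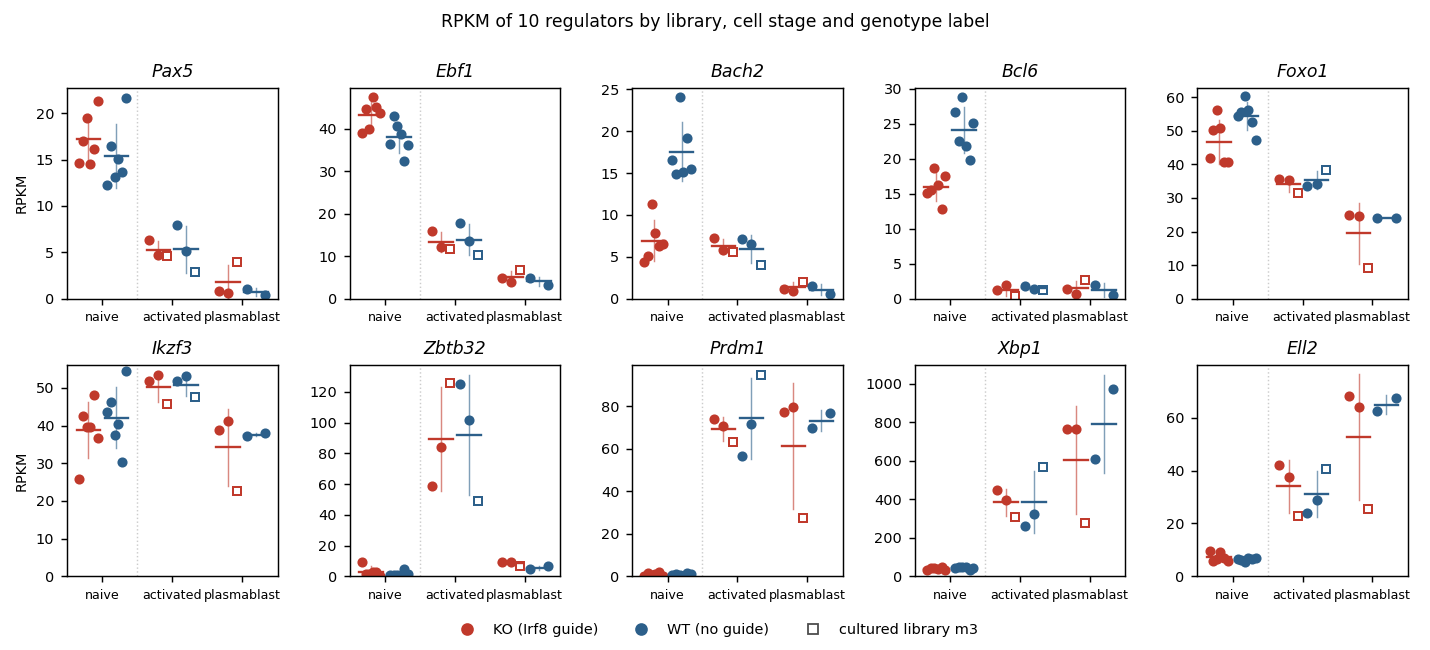
RPKM of the 10 regulators in each library (points; open squares are the cultured m3 libraries) by stage, with KO in red left of WT in blue, the mean as a line and the SD as a thin bar. Naive points combine both guide arms, and the dotted line separates the naive and cultured tables, which were normalised separately. Bach2 and Bcl6 were the regulators whose naive KO and WT points did not overlap, and Xbp1, Prdm1 and Ell2 stood high in cultured cells.

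The level of each regulator was read first over the stages. In naive B cells the order by mean RPKM was led by Foxo1, Xbp1, Ebf1 and Ikzf3, with group means between 36.6 and 55.7 RPKM that overlapped from library to library. Prdm1 was last in all 4 naive groups, at 0.027 to 1.78 RPKM, and Zbtb32 stood next to last, at 0.127 to 9.56 RPKM. The naive groups thus held the B cell regulators together with Xbp1, at a level near that of Ebf1 and Ikzf3, and almost no Prdm1. In activated B cells Xbp1 was first (383 ± 69.1 RPKM in KO and 383 ± 161 RPKM in WT, SD, n = 3 each). Zbtb32 and Prdm1 followed, and their library ranges overlapped. Bcl6 was last, at 0.437 to 1.95 RPKM in KO and 1.25 to 1.85 RPKM in WT libraries. In plasmablasts Xbp1, Prdm1 and Ell2 were the highest, and Pax5, Bach2 and Bcl6 the lowest. Without KO library m3, Pax5, Bach2 and Bcl6 each stayed under 2 RPKM in the 4 plasmablast libraries, and their ranges overlapped. Fewer cells holding a transcript and less transcript per cell cannot be told apart in these bulk libraries.

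The naive comparison asked whether the regulators differed with the Irf8 guides before any stimulation. Over both guides, 2 of the 10 regulators were called, Bach2 and Bcl6, both lower in KO, where 1.88% of all tested genes were called and 0.858% were called lower. They were also the only regulators whose 6 KO and 6 WT libraries did not overlap, as in 1.88% of all tested genes. The other 8 were not called. Bach2os lies within Bach2, and 5730488B01Rik and Mir5120 overlap Pax5. Whether counting used strand is not given in the sources used here, so reads of overlapping genes cannot be told apart.

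Bach2 encodes a transcriptional repressor that delays plasma cell differentiation by holding down Prdm1. It lies on chromosome 4 (Entrez 12014, 32238413 to 32586109 on GRCm38.p6). With guide 1 Bach2 had 4.41, 11.3 and 6.35 RPKM in the KO libraries A, B and C, against 16.5, 24.0 and 19.1 RPKM in the WT libraries. With guide 2 it had 5.15, 7.82 and 6.503 RPKM in the KO libraries and 14.9, 15.1 and 15.5 RPKM in the WT libraries. In both arms every KO library lay below every WT library, and the WT libraries of arm 2 differed among themselves by less than the KO libraries. The mean over both guides was 6.93 ± 2.46 RPKM in KO and 17.5 ± 3.54 RPKM in WT (SD, n = 6 each). On the log2 scale Bach2 fell by 1.26 (SE 0.18; adjusted p = 0.00561, limma), and it kept this call in all 16 alternatives tried. Within guide 1 the difference was -1.39 (SE 0.26; adjusted p = 0.0329), where 1.11% of all tested genes were called and 0.523% were called lower. That call was lost when KO library C of guide 1, or any WT library of either arm, was left out, with adjusted p of 0.0538 to 0.146. Within guide 2 the difference was -1.13 (SE 0.26; adjusted p = 0.392), in a comparison that called 0.0296% of all genes, and it was called without KO guide 1 library A (adjusted p = 0.0279), which enters through the shared estimate of spread. The difference between the 2 guides was -0.26, with a 95% interval of -1.07 to 0.54, and no gene at all was called for it (0% of tested genes by limma, 479 genes at an unadjusted p under 0.05).

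Bcl6 encodes the repressor that directs germinal centre B cells and blocks their exit to plasma cells. It lies on chromosome 16 (Entrez 12053, 23965050 to 23988866 on GRCm38.p6). In the KO libraries of guide 1 Bcl6 had 15.04, 18.7 and 12.7 RPKM, against 26.7, 28.7 and 19.9 RPKM in their WT libraries. In the KO libraries of guide 2 it had 15.5, 16.2 and 17.5 RPKM, against 22.6, 21.8 and 25.0 RPKM in their WT libraries. The highest KO library, B of guide 1, lay just under the lowest WT library, C of arm 1. On the log2 scale Bcl6 fell by 0.57 over both guides (SE 0.12; adjusted p = 0.0309), with means of 15.9 ± 2.06 RPKM in KO and 24.1 ± 3.31 RPKM in WT (SD, n = 6 each). This call was less firm than that of Bach2: it was lost when KO library C of guide 1, KO library A or B of guide 2, WT library A or B of arm 1, or any WT library of arm 2 was left out (adjusted p of 0.0591 to 0.0922). Within each guide it was not called, at -0.66 for guide 1 (adjusted p = 0.0805; called at 0.027 without KO library B of guide 1) and -0.47 for guide 2 (adjusted p = 0.899).

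**Figure D2:**
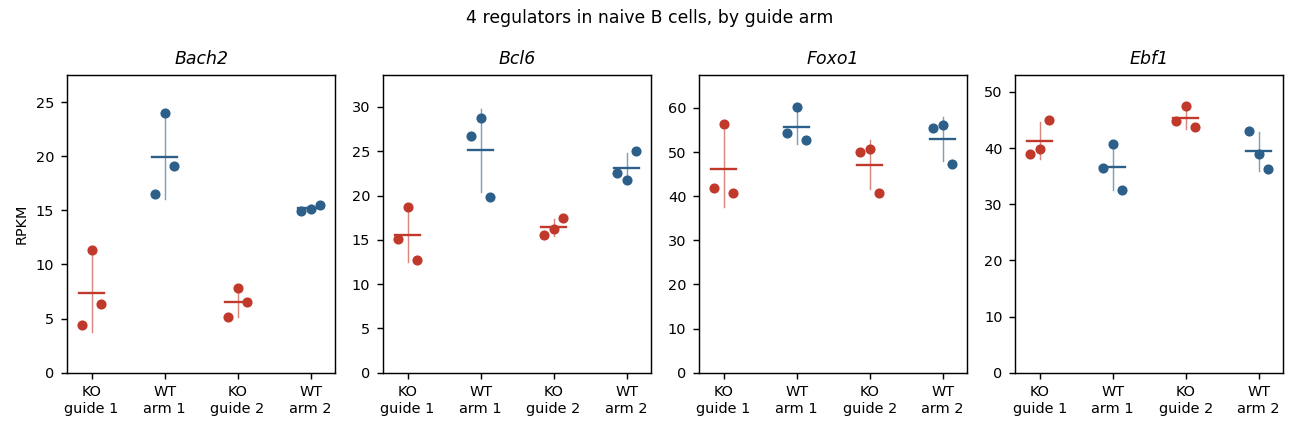
RPKM of Bach2, Bcl6, Foxo1 and Ebf1 in naive B cells by guide arm, with each library as a point, the mean as a line and the SD as a thin bar. Bach2 and Bcl6 were lower in every KO library than in every WT library of its arm, while Foxo1 overlapped in both arms and Ebf1 in arm 1.

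The promoter windows of the called pair are shown because both hold the composite motif of ETS and interferon regulatory factors. RefSeq windows (GRCm38.p6) of 250 bases before and 50 after an annotated start were found for 9 of the 10 regulators, 12 windows in all, with none for Ikzf3. The motif, searched on both strands as GGAA, 2 bases of any kind and GAAA, was in 2 of these 12 windows, 1 of Bach2 and 1 of Bcl6, and in 2.72% of all 32851 windows. The palindrome TTCNNNGAA, read by STAT factors and in part by BCL6 itself, was in the Bach2 window and in both Bcl6 windows, against 8.30% of all windows. The 250 bases before the start are printed for the 2 windows with the composite motif, 5′ to 3′ on the gene's strand, with matches to either motif in capitals. The Bach2 start is internal to the gene, chr4:32417185-32417434 on the plus strand, and the composite match begins at position -17 from the start, on the opposite strand. The Bcl6 start is also internal, chr16:23981284-23981533 on the minus strand, and its composite match begins at position -28.
Bach2: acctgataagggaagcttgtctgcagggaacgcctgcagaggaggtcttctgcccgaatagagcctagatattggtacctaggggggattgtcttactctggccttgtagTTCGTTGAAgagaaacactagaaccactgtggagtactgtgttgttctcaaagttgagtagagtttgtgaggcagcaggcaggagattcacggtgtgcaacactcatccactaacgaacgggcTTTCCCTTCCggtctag
Bcl6: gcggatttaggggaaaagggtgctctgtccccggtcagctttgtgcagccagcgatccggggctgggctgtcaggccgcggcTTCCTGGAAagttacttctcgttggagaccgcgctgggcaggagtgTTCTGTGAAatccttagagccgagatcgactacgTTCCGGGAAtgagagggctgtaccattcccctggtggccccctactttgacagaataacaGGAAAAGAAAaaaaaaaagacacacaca
In the printed stretches Bach2 has 1 composite and 1 palindrome match, and Bcl6 has 1 composite and 3 palindrome matches. In all, 15 motifs were searched in the same way. Of the others, a pair of GAAA separated by 2 bases was in 1 Ebf1 window (3.44% of all windows), GTAAACA in the Prdm1 window (3.65%), TGACGTCA in the Ell2 window (1.79%) and CACGTG in 1 Bcl6 window (7.15%), where it overlaps a CCACG match. GAGGAA was in 3 of the 12 windows (28.3% of all), and CCAAT and CCACG were in 5 each (37.4% and 32.8% of all). No regulator's window held TGAGTCA (5.202% of all), TGACGTGG (0.676%), the NF-kB site of GGGGA followed by TTTCC (0.0974%), CCGGAAGT (3.89%), ATGCAAAT (1.74%) or TATAAA (13.6%). A match is a description of letters in a window, and binding was not measured.

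The other regulators of the B cell programme stayed within or near the spread of the naive libraries. Foxo1, which drives expression of homing receptors and recombination genes, was at 46.7 ± 6.56 RPKM in KO and 54.4 ± 4.29 RPKM in WT, a difference of -0.22 with a 95% interval of -0.44 to 0.00 (adjusted p = 0.393). Ebf1, which specifies the B lineage, was at 43.3 ± 3.26 RPKM in KO and 38.0 ± 3.73 RPKM in WT (difference 0.19, interval 0.00 to 0.37, adjusted p = 0.381). Pax5, the guardian of B cell identity, was at 17.2 ± 2.70 RPKM in KO and 15.4 ± 3.43 RPKM in WT (difference 0.17, interval -0.11 to 0.44, adjusted p = 0.617). The SD is over 6 libraries a group in these sentences. Ikzf3 ranged over 25.7 to 48.2 RPKM in KO and 30.4 to 54.5 RPKM in WT libraries (adjusted p = 0.777). The Ikzf3 difference was -0.12, with an interval of -0.44 to 0.20.

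The regulators of the secretory state were not called in naive cells. Prdm1 had 0.257, 0.451 and 1.78 RPKM in guide 1 KO libraries and 1.71, 0.853 and 0.161 RPKM in guide 2 KO libraries, against 0.642, 0.719 and 1.35 RPKM and 1.21, 0.027 and 0.905 RPKM in the WT libraries of the same arms. Its values overlapped throughout, with a difference of 0.01 and an interval of -0.61 to 0.62, and it was not called. Xbp1 was at 30.6 to 48.7 RPKM in KO and 32.2 to 50.3 RPKM in WT libraries (adjusted p = 0.67). Ell2 was at 5.66 to 9.54 RPKM in KO and 5.41 to 7.08 RPKM in WT libraries (adjusted p = 0.753). Zbtb32 was at 0.127 to 9.56 RPKM in KO and 0.865 to 4.81 RPKM in WT libraries (adjusted p = 0.762). Its highest values were in KO library A of guide 1 and WT library C of arm 1. Within single arms, Pax5 lay higher in each guide 1 KO library than in each WT library, and with guide 2 Xbp1 lay lower and Ebf1 higher in each KO library. Such separation of 3 from 3 libraries occurred in 17.7% of all tested genes for guide 1 and 13.8% for guide 2, and none of these 3 genes was called.

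Genes around the regulators were described by lists. Of 28 other transcription factors of B cells that were tested, 4 fell and none rose: Irf8 itself, Myb, Zeb2 and Klf2. Among all tested genes 0.858% were called lower. Irf8 was at 59.7 ± 12.6 RPKM in KO and 90.6 ± 6.57 RPKM in WT (difference -0.61, adjusted p = 0.00412, limma). Within guide 1, the guide used in culture, its difference was -0.46 and not called (adjusted p = 0.0703). Within guide 2 the Irf8 difference was -0.77 (adjusted p = 0.0427). Myb, a factor of lymphoid progenitors, was at 2.10 ± 1.67 RPKM in KO and 7.16 ± 3.41 RPKM in WT (difference -1.50, adjusted p = 0.0486). Zeb2, an E-box repressor, was at 0.981 ± 0.409 RPKM in KO and 2.58 ± 0.431 RPKM in WT (difference -0.87, adjusted p = 0.0229). Klf2, a factor of quiescence and recirculation, was at 201 ± 43.0 RPKM in KO and 304 ± 32.5 RPKM in WT (difference -0.62, adjusted p = 0.0341). The median difference of this list was -0.10, against -0.02 over all tested genes. Among 10 FOXO1 targets tested, Klf2 alone was called (list median -0.19). Of 24 partners and cofactors of the regulators, none was called (median -0.04).

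Targets of the regulators were counted in the naive comparison over both guides, where 1.88% of all tested genes were called and 0.858% were called lower. Of 14 B cell genes activated by PAX5 or EBF1, Cr2 (complement receptor CD21) rose and Vpreb3 and Fcer2a (the IgE receptor CD23) fell, with a list median of 0.06. Cr2 was at 228 ± 35.4 RPKM in KO and 108 ± 41.7 RPKM in WT, and Fcer2a at 179 ± 62.8 RPKM in KO and 367 ± 54.5 RPKM in WT. None of 8 genes repressed by Blimp-1 and none of 12 tested genes repressed by BCL6 was called, with medians of 0.02 and -0.02. Of 28 XBP1 targets, Pdia4 rose (491 ± 105 RPKM in KO and 269 ± 47.8 RPKM in WT) and Herpud1 fell (43.3 ± 2.35 RPKM in KO and 58.5 ± 4.63 RPKM in WT). Of 13 tested plasma cell genes, Sdc1 (CD138; difference -1.49, adjusted p = 0.00313) and Txndc5 (difference -0.63, adjusted p = 0.0266) fell. Sdc1 was low in both groups, at 0.399 ± 0.465 RPKM in KO and 2.85 ± 0.845 RPKM in WT. The summed plasma cell markers did not fall with it, and 4 of the 5 were listed. With guide 1 they summed to 118 to 215 RPKM in KO and 85.3 to 115 RPKM in WT libraries. With guide 2 they summed to 103 to 156 RPKM in KO and 89.8 to 149 RPKM in WT libraries. Markers of other cells were also read. Of 8 T cell markers 1 was listed, with 15.4 to 31.6 RPKM in KO and 15.1 to 21.7 RPKM in WT libraries. Of 9 macrophage and monocyte markers 6 were listed, summing to 0.914 to 33.0 RPKM in KO and 2.81 to 10.3 RPKM in WT libraries. By arm this sum was 4.95 to 33.0 RPKM in KO and 5.46 to 10.3 RPKM in WT libraries for guide 1. For guide 2 it was 0.914 to 5.57 RPKM in KO and 2.81 to 9.92 RPKM in WT libraries. Of 7 natural killer cell markers 5 were listed, summing to 2.30 to 5.84 RPKM in KO and 0.755 to 14.1 RPKM in WT libraries. Of 8 markers of erythroid cells and platelets 2 were listed, summing to 2.54 to 21.7 RPKM in KO and 2.76 to 13.9 RPKM in WT libraries. These highest sums were in arm 1, and with guide 2 the sum reached 6.51 RPKM in KO and 5.61 RPKM in WT libraries. Of 6 dendritic cell markers 4 were listed, summing to 0.047 to 3.14 RPKM in KO and 1.04 to 2.97 RPKM in WT libraries. No neutrophil marker of 6 was listed. The part of such cells in the naive differences was not tested.

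By likeness of pattern over the 12 naive libraries, the non-member genes closest to Bach2 were Hlx (r = 0.963), Rbpms (r = 0.959) and Scpep1 (r = 0.957). Closest to Bcl6 were Wfdc17 (r = 0.91), Fcer2a (r = 0.904) and Cd83 (r = 0.889). These are Pearson correlations of log2(RPKM + 1) among libraries that share the same groups, and they are given as a description.

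Cultured cells were compared first between stages, to describe which regulators separated plasmablasts from activated B cells within each genotype. With all libraries, 3 of the 10 regulators were called in KO cells, where 3.44% of all tested genes were called, and the same 3 in WT cells, where 1.76% were called. They were Zbtb32, Bach2 and Ebf1, all lower in plasmablasts, as were 2.67% of all tested genes in KO and 1.43% in WT cells. All cultured libraries share 1 estimate of the spread per gene, plasmablast KO m3 included. Without that library alone, or without all 3 m3 libraries, 8 of the 10 regulators were called in each genotype, 6 lower and 2 higher. The background was then large. Without plasmablast KO m3 alone, 3037 of 9986 tested genes were called in KO and 3319 in WT cells. Without the 3 m3 libraries 33.3% of all tested genes were called in KO and 45.9% in WT cells. As shares of all tested genes, 21.3% were lower and 12% higher in KO, and 30.5% were lower and 15.4% higher in WT cells. The median difference of all tested genes was itself -0.22 in KO and -0.12 in WT cells with all libraries, and -0.10 in KO and -0.16 in WT cells without the 3. With all libraries the count of 3 was the same in both genotypes when each library was centred on its median.

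**Figure D3:**
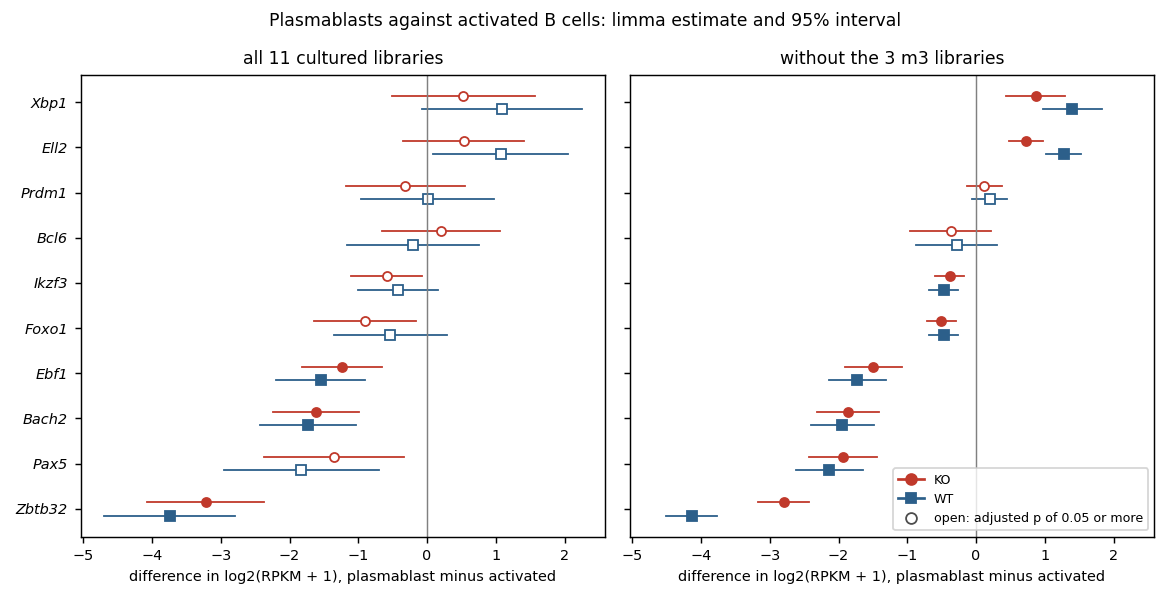
Difference in log2(RPKM + 1) between plasmablasts and activated B cells for each regulator (limma estimate with its 95% interval), KO as red circles above WT as blue squares. Filled symbols are called at an adjusted p under 0.05. The left panel uses all 11 cultured libraries and calls 3 regulators in each genotype, and the right panel leaves out the 3 m3 libraries and calls 8.

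Zbtb32 showed the widest separation of the 10. In KO plasmablasts it had 9.14, 9.37 and 6.56 RPKM, the last resting on an estimated 1 read, against 58.7, 84.2 and 126 RPKM in the activated libraries m1, m2 and the one labelled KO m3. In WT plasmablasts m1 and m2 it had 4.67 and 6.38 RPKM, against 125, 101 and 49.0 RPKM in the activated libraries m1, m2 and the one labelled WT m3. Every plasmablast library was far below every activated one, and the naive libraries had medians of 2.03 RPKM in KO and 1.13 RPKM in WT. On the log2 scale Zbtb32 fell by 3.22 in KO (SE 0.38; adjusted p = 0.00569) and by 3.74 in WT cells (SE 0.42; adjusted p = 0.00435). When the m3 libraries were left out it fell by 2.80 in KO (SE 0.17; adjusted p = 2.33e-07) and by 4.14 in WT cells (SE 0.17; adjusted p = 4.68e-09). The KO call held without any single library. The WT call was lost without plasmablast WT library m1 (adjusted p = 0.0704) or m2 (0.102), where the lone remaining library is assumed to vary like the other groups.

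Bach2 was lower in plasmablasts than in activated cells of both genotypes. In KO plasmablasts it had 1.203, 0.941 and 2.03 RPKM, against 7.23, 5.86 and 5.63 RPKM in KO activated libraries. The plasmablast value of 2.03 RPKM, in KO m3, rests on an estimated 2 reads. In WT plasmablasts it had 1.58 and 0.603 RPKM, against 7.18, 6.51 and 4.01 RPKM in WT activated libraries. On the log2 scale Bach2 fell by 1.62 in KO (SE 0.28; adjusted p = 0.0195) and by 1.73 in WT cells (SE 0.31; adjusted p = 0.028), and without the 3 m3 libraries by 1.86 in KO and 1.95 in WT cells. The KO call was lost without any activated KO library or plasmablast KO m1 or m2 (adjusted p of 0.051 to 0.0846), and without the activated m3 pair (0.0795). The WT call was lost without any activated KO library, activated WT m1 or m2, or either plasmablast WT library (0.0504 to 0.384). Of 6 markers of dendritic cells and 8 of T cells 1 each was listed in cultured cells. The T cell marker ranged over 0.670 to 53.9 RPKM in KO and 0.246 to 0.728 RPKM in WT plasmablasts, and over 3.49 to 5.04 RPKM in KO and 3.41 to 3.61 RPKM in WT activated libraries. The dendritic cell marker ranged over 5.28 to 37.9 RPKM in KO and 4.20 to 5.73 RPKM in WT plasmablasts, and over 12.05 to 16.4 RPKM in KO and 8.38 to 22.2 RPKM in WT activated libraries. Of natural killer, macrophage and erythroid or platelet markers 1 each was also listed. The erythroid or platelet marker had 0 to 2.6 RPKM in KO and 0.329 to 1.06 RPKM in WT plasmablasts. In activated libraries it had 5.65 to 12.1 RPKM in KO and 3.11 to 11.7 RPKM in WT. The macrophage marker was at most 0.243 RPKM in plasmablasts and 2.05 RPKM in activated libraries. The natural killer marker reached 8.78 RPKM in KO plasmablasts and 1.38 RPKM elsewhere. All KO plasmablast ranges include library m3, which held an estimated 51000 reads in genes. In that library 6.56 RPKM of Zbtb32 rests on an estimated 1 read. The part of such cells in these differences was not tested.

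Ebf1 and Pax5 were also lower in plasmablasts. In KO cells Ebf1 had 4.85, 3.87 and 6.65 RPKM in plasmablasts and 16.0, 12.3 and 11.7 RPKM in activated libraries. In WT cells it had 4.88 and 3.24 RPKM in plasmablasts and 17.8, 13.6 and 10.4 RPKM in activated libraries. The stages did not overlap in either genotype, as in 30.1% of all tested genes in KO and 58.3% in WT cells, and Ebf1 fell by 1.24 in KO (SE 0.26; adjusted p = 0.0341) and by 1.55 in WT cells (SE 0.29; adjusted p = 0.0312). With m3 left out it fell by 1.49 in KO (adjusted p = 8.25e-05) and by 1.73 in WT cells (adjusted p = 1.37e-05). Leaving out single libraries cost Ebf1 its call in 8 of 11 fits for each genotype. For KO they were the fits without any activated KO library, plasmablast KO m1 or m2, activated WT m2, or either plasmablast WT library (adjusted p of 0.062 to 0.128). For WT these were the fits without any activated KO library, plasmablast KO m1, activated WT m1 or m2, or either plasmablast WT library (0.0539 to 0.419). Without the activated m3 pair the Ebf1 call was lost in KO (0.114) and in WT cells (0.056). In KO cells Pax5 had 0.825, 0.575 and 3.97 RPKM in plasmablasts and 6.36, 4.71 and 4.66 RPKM in activated libraries, a difference of -1.35 (SE 0.45; adjusted p = 0.138). The KO m3 value of 3.97 RPKM rests on an estimated 2 reads. In WT cells Pax5 had 1.03 and 0.400 RPKM in plasmablasts and 7.90, 5.13 and 2.91 RPKM in activated libraries, a difference of -1.83 (SE 0.50; adjusted p = 0.122). Pax5 fell, once the m3 libraries were left out, by 1.94 in KO (adjusted p = 3.87e-05) and by 2.13 in WT cells (adjusted p = 9.35e-06).

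Foxo1 and Ikzf3 were lower in plasmablasts by a smaller amount. In KO cells Foxo1 had 24.8, 24.6 and 9.004 RPKM in plasmablasts and 35.6, 35.2 and 31.4 RPKM in activated libraries. In WT cells it had 24.1 and 24.0 RPKM in plasmablasts and 33.4, 34.1 and 38.5 RPKM in activated libraries. Ikzf3 had 38.7, 41.4 and 22.6 RPKM in KO plasmablasts and 51.7, 53.4 and 45.7 RPKM in KO activated libraries, and 37.3 and 37.9 RPKM in WT plasmablasts and 51.8, 53.2 and 47.6 RPKM in WT activated libraries. Neither gene overlapped between stages, as in 30.1% of all tested genes in KO and 58.3% in WT cells. With all libraries Foxo1 was not called (adjusted p = 0.168 in KO and 0.642 in WT), nor was Ikzf3 (0.193 in KO and 0.562 in WT). Without the 3 m3 libraries Foxo1 fell by 0.50 in KO and 0.47 in WT cells, and Ikzf3 by 0.38 in KO and 0.47 in WT cells, with adjusted p of 0.00151 to 0.00818. Bcl6 was not called in either fit. It had 1.42, 0.637 and 2.62 RPKM in KO plasmablasts and 1.23, 1.95 and 0.437 RPKM in KO activated libraries. In WT cells it had 1.95 and 0.589 RPKM in plasmablasts and 1.85, 1.43 and 1.25 RPKM in activated libraries. The Bcl6 value of 2.62 RPKM in plasmablast KO m3 rests on an estimated 1 read. Set side by side without a test, all cultured libraries lay below the naive libraries, whose lowest value was 12.7 RPKM.

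Xbp1 and Ell2 were higher in plasmablasts once the 3 m3 libraries were left out, and Prdm1 was not called. In KO cells Xbp1 had 765, 764 and 279 RPKM in plasmablasts and 446, 394 and 309 RPKM in activated libraries. In WT cells it had 609 and 970 RPKM in plasmablasts and 260, 324 and 565 RPKM in activated libraries. With all libraries the differences of 0.53 in KO and 1.08 in WT cells were not called (adjusted p = 0.481 in KO and 0.419 in WT). With the m3 libraries left out, Xbp1 rose by 0.86 in KO (SE 0.20; adjusted p = 0.00466) and by 1.40 in WT cells (SE 0.20; adjusted p = 9.03e-05). Ell2 had 68.4, 64.3 and 25.4 RPKM in KO plasmablasts and 42.1, 37.4 and 22.8 RPKM in KO activated libraries, and 62.4 and 67.5 RPKM in WT plasmablasts and 23.9, 28.9 and 40.6 RPKM in WT activated libraries. It was not called with all libraries (adjusted p = 0.412 in KO and 0.312 in WT), and without the 3 it rose by 0.73 in KO (SE 0.12; adjusted p = 0.000404) and by 1.27 in WT cells (SE 0.12; adjusted p = 2.5e-06). In KO cells Prdm1 had 77.1, 79.8 and 27.3 RPKM in plasmablasts and 73.9, 70.5 and 63.0 RPKM in activated libraries. In WT cells it had 69.6 and 76.6 RPKM in plasmablasts and 56.7, 71.4 and 94.6 RPKM in activated libraries. The stages overlapped with all libraries, and without the 3 m3 libraries the Prdm1 difference was 0.12 in KO (95% interval -0.14 to 0.38) and 0.20 in WT cells (-0.06 to 0.45).

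Target lists of the regulators were read in the same comparison. Of 8 genes repressed by Blimp-1, 4 fell in KO and 5 in WT plasmablasts with all libraries, with medians of -2.35 in KO and -3.29 in WT. In the fit that leaves out m3, 7 fell in KO and all 8 in WT cells (medians -2.72 in KO and -3.61 in WT). Spib, an ETS factor that stands in 3 of the lists, fell by 4.51 in KO and 5.02 in WT cells with all libraries (adjusted p = 0.0021 in KO and 0.00222 in WT). Without the 3 it fell by 3.86 in KO (adjusted p = 7.32e-09) and by 5.31 in WT cells (adjusted p = 2.61e-10). Of 28 XBP1 targets none was called with all libraries, and without the 3, 26 rose in KO (median 0.72) and all 28 in WT cells (median 1.09). In KO cells Edem1, which extracts misfolded glycoproteins, was at 261 ± 4.75 RPKM in plasmablast m1 and m2 and 124 ± 10.1 RPKM in activated m1 and m2 (SD, n = 2 each). In WT cells it was at 265 ± 66.4 RPKM in plasmablasts and 83.4 ± 15.7 RPKM in activated m1 and m2.

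Lists of the B cell programme and of plasma cells were counted in the same way. Of 14 genes activated by PAX5 or EBF1, 5 fell in KO and 4 in WT cells with all libraries and 10 in each genotype without the 3 m3 libraries, where 1 rose in WT. Cd22, an inhibitory receptor of B cells, fell by 3.17 in KO and 4.71 in WT cells with all libraries (adjusted p = 0.0126 in KO and 0.00435 in WT). Without the 3 its difference was -3.72 in KO and -5.16 in WT cells (adjusted p = 1.82e-07 in KO and 2.87e-09 in WT). Of 29 other transcription factors tested, 7 fell in KO and 5 in WT cells with all libraries, and none rose. Without the 3 m3 libraries 17 fell and 1 rose in KO, and 21 fell and 2 rose in WT cells. Of 10 FOXO1 targets tested, 4 fell in each genotype with all libraries, among them Ccr7, a homing receptor, Klf2 and Btg1 in both. Without the 3, 6 fell and 2 rose in KO, and 5 fell and 3 rose in WT cells. Of 15 genes repressed by BCL6, 2 fell in KO and 1 in WT cells with all libraries, and 7 fell and 3 rose in each genotype without the 3. Of 14 plasma cell genes, Sdc1 and Slpi rose in both genotypes with all libraries, and all 14 rose in both without the 3. Sdc1, which encodes the CD138 used in the sort, had 33.3, 29.3 and 3.03 RPKM in KO plasmablasts and 0.448 to 0.790 RPKM in KO activated libraries, and 27.5 and 34.1 RPKM in WT plasmablasts and 0.226 to 0.473 RPKM in WT activated libraries. Of 24 partners and cofactors, Hdac1 and Mta3, a cofactor of BCL6, fell in KO, and Hdac1 fell in WT cells. Without the 3, 8 fell and 3 rose in KO, and 10 fell and 3 rose in WT cells. All these counts without the 3 m3 libraries stand beside 21.3% of all tested genes lower and 12% higher in KO, and 30.5% lower and 15.4% higher in WT cells. With all libraries the list medians lay between -1.29 and -0.25, except those of the Blimp-1 and XBP1 lists and of the plasma cell genes. XBP1 targets had medians of 0.21 in KO and 0.90 in WT cells, and plasma cell genes of 1.04 in KO and 1.62 in WT cells.

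By likeness of pattern over the 10 cultured libraries other than plasmablast KO m3, the genes closest to Zbtb32 were Gypc (r = 0.998) and Swap70 (r = 0.994). Closest to Bach2 were Rhoh, Uchl3 and Lrch1 (r = 0.996 each), and closest to Ebf1 were Arhgap24 (r = 0.995), Plcb2 (r = 0.993) and Rbm12 (r = 0.992). The libraries share their stages, so such values mostly describe the separation of plasmablasts from activated cells.

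The KO and WT cells were then compared within each cultured stage. With all activated libraries none of the 10 regulators was called, and no gene was (0% by limma, 2 genes at an unadjusted p under 0.05). The m3 libraries stood opposite to m1 and m2 in several regulators. Ell2 had 42.1 and 37.4 RPKM in KO m1 and m2, against 23.9 and 28.9 RPKM in WT m1 and m2, while the library labelled KO m3 had 22.8 and the library labelled WT m3 had 40.6. Xbp1 had 446 and 394 RPKM in KO m1 and m2, against 260 and 324 RPKM in WT m1 and m2, and the m3 libraries had 309 RPKM where labelled KO and 565 RPKM where labelled WT. Zbtb32 had 58.7 and 84.2 RPKM in KO m1 and m2, against 125 and 101 RPKM in WT m1 and m2, and the m3 libraries had 126 RPKM where labelled KO and 49.0 RPKM where labelled WT. No regulator separated the KO from the WT libraries, as 3.13% of all tested genes did. In Ell2, Xbp1 and Zbtb32 the m3 pair differed in the opposite direction from m1 and m2, as it did in Thy1 and Irf8.

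**Figure D4:**
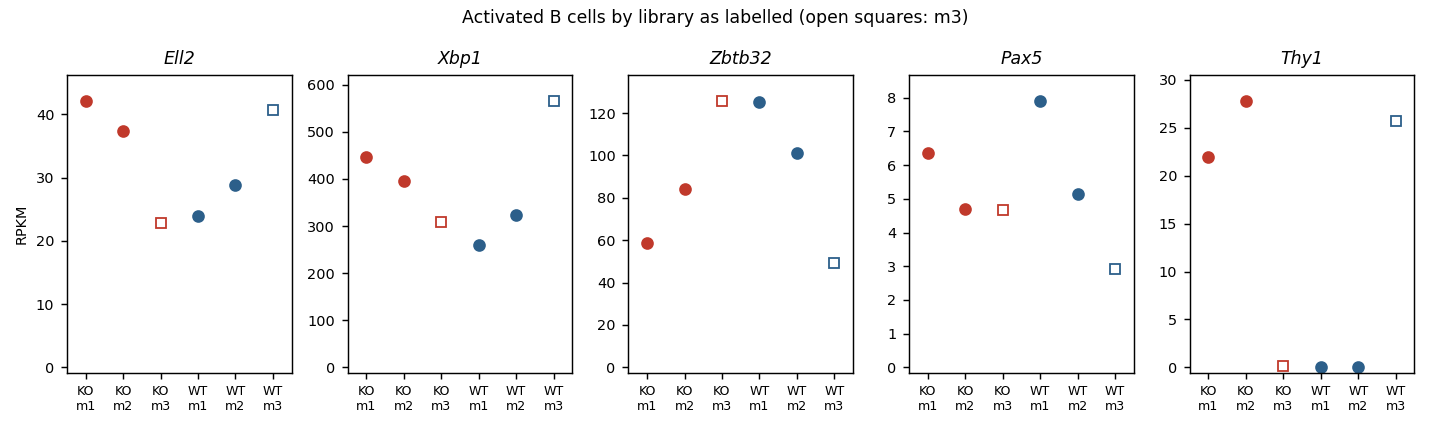
RPKM of Ell2, Xbp1, Zbtb32, Pax5 and the sorting marker gene Thy1 in the 6 activated B cell libraries as labelled, KO in red left of WT in blue, with m3 as open squares. Thy1 was at 21.9 and 27.8 RPKM in KO m1 and m2 and at 25.7 RPKM in the library labelled WT m3, and at most 0.093 RPKM in the other libraries.

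Without the 3 m3 libraries, activated KO cells differed from WT in 1 of the 10 regulators, Ell2, where 0.651% of all tested genes were called and 0.581% were called higher. Ell2 rose by 0.58 (SE 0.12, n = 2 each; adjusted p = 0.044). Zbtb32 differed by -0.67 (SE 0.17; adjusted p = 0.0978) and Xbp1 by 0.53 (SE 0.20; adjusted p = 0.281), neither called. The other 7 regulators lay between -0.19 (Pax5) and 0.18 (Prdm1), with adjusted p of 0.629 or more. Irf8 itself differed by -0.55 in this fit (SE 0.15; adjusted p = 0.127) and was not called. Ell2 was not called when the activated m3 pair alone was left out and plasmablast KO m3 stayed in the fit. Of 24 partners and cofactors, Eaf2, which binds ELL proteins, rose by 0.63 (adjusted p = 0.0359), with 41.8 and 35.4 RPKM in KO m1 and m2 and 22.6 and 26.4 RPKM in WT m1 and m2. Of 14 plasma cell genes, 3 rose: Eaf2, Fkbp11 (42.6 and 42.9 RPKM in KO against 16.2 and 27.4 RPKM in WT; difference 0.99, adjusted p = 0.0418) and Tnfrsf17, the survival receptor BCMA (1.56 and 1.79 RPKM in KO against 0.249 and 0.220 RPKM in WT; difference 1.12, adjusted p = 0.0237). The list median was 0.56, against -0.01 over all tested genes. The 28 XBP1 targets had a median of 0.29, with all 28 differences positive and none called. The 8 genes repressed by Blimp-1 had a median of -0.37, all negative and none called. No gene of the other lists was called. With all libraries no gene of any list was called.

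**Figure D5:**
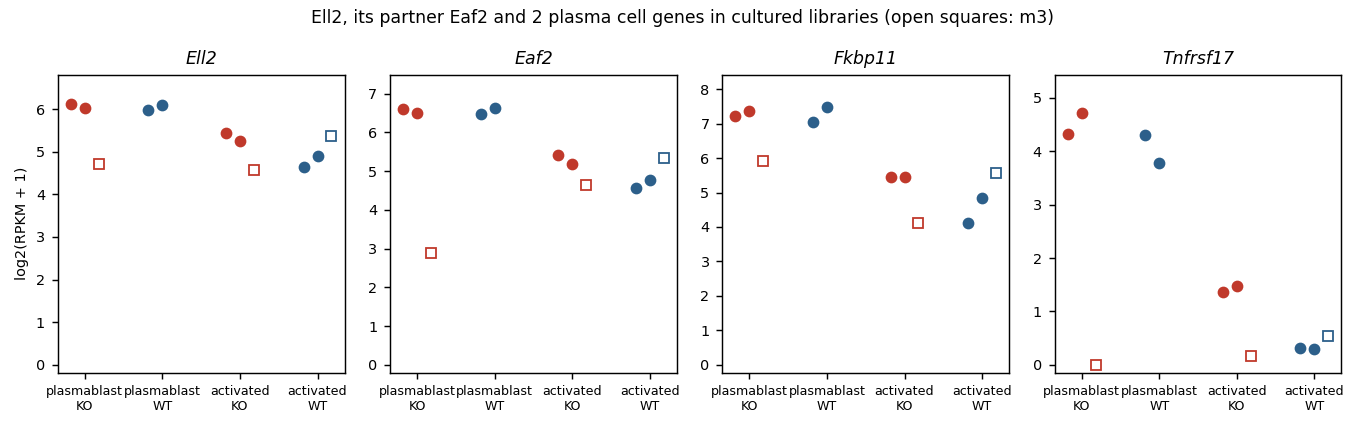
RPKM of Ell2, its partner Eaf2 and the plasma cell genes Fkbp11 and Tnfrsf17 in each cultured library as labelled, plasmablasts left of activated B cells and KO (red) left of WT (blue), with m3 as open squares; the vertical axis is log2(RPKM + 1). In activated cells KO m1 and m2 lie above WT m1 and m2 in all 4 genes, and in plasmablasts the m1 and m2 points of Ell2 and Eaf2 overlap between genotypes.

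In plasmablasts none of the 10 regulators was called between KO and WT, with all libraries (0% of genes called by limma, 85 at an unadjusted p under 0.05) or without the 3 m3 libraries (0.0701% called). The median of all tested genes was -0.12 with all libraries and 0.04 without the 3. Zbtb32 had 9.14, 9.37 and 6.56 RPKM in KO, against 4.67 and 6.38 RPKM in WT libraries. The groups did not overlap, as in 13.5% of all tested genes. The KO m3 value of 6.56 RPKM, just above the higher WT library, rests on an estimated 1 read. The Zbtb32 difference was 0.52 with all libraries (SE 0.42; adjusted p = 0.609), and without the 3 m3 libraries 0.66 (SE 0.17; adjusted p = 0.33). In that fit the other 9 regulators lay between -0.12 and 0.10. Irf8 itself was at 17.5, 21.4 and 24.2 RPKM in KO and 24.6 and 17.6 RPKM in WT plasmablasts, overlapping, so the plasmablast libraries do not check the Irf8 label by transcript level. Of the list genes, Vpreb3 fell in KO without the 3 m3 libraries (difference -0.68, adjusted p = 0.0466).

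The last comparison asked whether the KO-WT difference changed between stages. None of the 10 regulators was called, with all libraries (0% of genes called by limma, 10 at an unadjusted p under 0.05) or without the 3 m3 libraries (0.03% called, which is 3 genes). The nearest was Zbtb32, whose KO-WT difference was 1.34 higher in plasmablasts than in activated cells without the 3 m3 libraries (SE 0.24; unadjusted p = 9.97e-05, adjusted p = 0.111). Its stage difference was -2.80 in KO and -4.14 in WT cells there, and with all libraries the difference between genotypes was 0.52 (SE 0.57; adjusted p = 0.816). For Ell2 it was -0.55 (95% interval -0.90 to -0.19; adjusted p = 0.408) and for Xbp1 -0.54 (-1.14 to 0.06; adjusted p = 0.726) without the 3. For Pax5, Ebf1, Bach2, Bcl6, Prdm1, Foxo1 and Ikzf3 the values lay between -0.09 and 0.24. Among list genes, Spib was called in this fit, at 1.45 (adjusted p = 0.0384), with a smaller stage difference in KO than in WT cells (-3.86 in KO and -5.31 in WT).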

How the data were processed

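RNA was prepared from sorted mouse spleen B cells with SMART-seq v4 and Nextera XT kits, per the labels' protocols. The authors deposited gene-level RPKM in 2 tables, 1 for 12 naive and 1 for 11 cultured libraries, normalised separately. STAR and mm10 are named in the submitters' processing notes; the version, counting tool and annotation are not given in the sources used here. RPKM keeps no counts, so no count test was run. Reads per library were estimated from the smallest steps between the deposited RPKM values (tolerance 0.2 of a read), and per-gene reads are estimates.

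Genes with at least 1 RPKM in at least 2 libraries of a table were kept (10137 naive, 9986 cultured). limma 3.58.1 (R 4.3.3) was fitted within each table to log2(RPKM + 1) over all its groups, with a mean-variance trend and Benjamini-Hochberg adjustment over all tested genes; this scale understates changes of low genes. The procedure was tested on simulated data. Tables were handled in Python 3.11.15 with pandas 2.3.3 and numpy 2.4.6, and figures drawn with matplotlib 3.10.9.

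The members, the gene lists and the tests were chosen with earlier results of these data known. All 10 regulators are named in every comparison. From each list up to 4 called genes with the largest absolute difference are named, and for each called regulator the 3 most correlated genes, except some genes that are not reported here. Alternatives were a pseudocount of 0.1, no filter, median centring, a replicate block, leaving out each library, and leaving out the activated m3 pair alone or with plasmablast KO m3. Replicate letters and numbers were not shown to pair samples. All columns of values were mapped to samples. Symbols that had turned into dates (15 in each table) belong to no gene described here.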

Additional observations from a re-analysis of the deposited data

Results flagged for a closer look

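In 44 groups of 6 naive values, 4 libraries lay far from the others of their group by Dixon's criterion, which chance alone meets in about 5% of groups. Zbtb32 was at 9.56 RPKM in KO library A of guide 1, which listed 1405 genes at 0, while the other KO libraries reached at most 3.05 RPKM. Zbtb32 was at 4.81 RPKM in WT library C of arm 1, above the other WT libraries. Pdia4 reached 361 RPKM in arm 2 WT library A. For Thy1, arm 1 WT library A held 4.93 RPKM, while the other WT libraries reached at most 0.052 RPKM.

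Without the 3 m3 libraries, the test of the difference between stages was called for Spib. Its KO-WT difference was higher in plasmablasts than in activated B cells by 1.45 on the log2 scale. With all libraries no gene was called in this test by limma, and 10 genes had an unadjusted p under 0.05.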

How the results depend on the processing

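Of 1490 alternative values of the 90 regulator differences, 1417 stayed on the same side of the threshold, 50 lost a call, 23 gained one and no called value changed sign. Leaving out single libraries moved the number of regulators called to 1 to 2 over both guides, beside 73 to 388 of 10137 tested genes. For guide 1 it moved to 0 to 2 (0 to 372 genes), and for guide 2 to 0 to 1 (0 to 35 genes). For plasmablasts against activated cells it moved to 1 to 8 in KO cells, and to as many as 8 or below 3 in WT cells. The 8 in each genotype came without plasmablast KO m3. In that fit 3037 of 9986 tested genes were called in KO and 3319 in WT cells. The number of regulators called stayed at 0 in the other comparisons. Without both activated m3 libraries, 1 regulator was called between stages in KO and 2 in WT cells. Of all tested genes, 61 were then called in KO and 138 in WT cells. Without the 3 m3 libraries, 8 were called in each, and 1 between KO and WT activated cells. The shares of all tested genes called were then 33.3% in KO, 45.9% in WT and 0.651% between KO and WT activated cells. The replicate numbers were not shown to pair samples. Deviations correlated at -0.105 to 0.176 over 6 naive pairs of libraries with the same letter. Over 15 cultured pairs with the same number they correlated at -0.243 to 0.254. With so few libraries a group, and the m3 libraries among the cultured pairs, these correlations cannot decide whether samples were paired. With the replicate block, 2 regulators were called between stages in each genotype, among 192 genes called in KO and 120 in WT cells. Ebf1 was lost in KO (adjusted p = 0.0525, limma) and Bach2 in WT cells (0.0597). Over both guides 2 regulators were called with the block, among 133 genes. Depth limits plasmablast KO m3 most. There Bcl6 and Zbtb32 rest on an estimated 1 read each, Pax5 and Bach2 on 2 each, and Ebf1 and Foxo1 on 4 each.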
